A study of Canis lupus familiaris with 6 samples.

Results

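Solute carriers are membrane proteins that move ions, metals, nutrients and metabolites across the plasma membrane and the membranes of organelles. The genes described here are those whose symbol in the deposited expression table starts with SLC and a digit, apart from 9 prefixes: SLC25A (mitochondrial carriers), SLC16A and SLC2A (monocarboxylate and glucose transporters), SLC1A, SLC3A, SLC7A, SLC38A and SLC43A (amino acid transporters) and SLC6A9. That rule uses names alone and left 233 members of 20500 rows in the table, out of 339 rows with such a symbol. The members belong to 43 families, which were placed in 10 classes by what they carry. Expression was measured by polyA RNA-seq in HU-HSA-2, a cultured cell line. It derives from hemangiosarcoma, a cancer of the blood vessel lining in dogs. The control group held 3 libraries and the GNE140 group 3, and the titles number the libraries 1 to 3 within each group. Per the labels, cells were given DMSO, the solvent, or (R)-GNE-140, an inhibitor of lactate dehydrogenase, for 72 hours. The dose is not given in the sources used here, and all 6 libraries come from this 1 cell line, so the comparison describes that line only.

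Most plasma membrane carriers are driven by the sodium gradient, by proton gradients, or by exchange of one solute for another. Carriers of organelles have other tasks: those of the Golgi bring in activated sugars for glycosylation, those of lysosomes release breakdown products, and zinc carriers of the SLC30 and SLC39 families move zinc out of and into the cytosol. Lactate dehydrogenase interconverts pyruvate and lactate, and glycolytic cells export lactate together with protons, so carriers of bicarbonate and protons are often studied beside it. Dipyridamole, named in the title of the study, is known to block the nucleoside transporter encoded by SLC29A1. Fluvastatin, also named there, inhibits cholesterol synthesis. Neither drug was given to the cells of these 6 libraries, per the labels.

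Of the 233 members, 56 were listed at 0 in all 6 libraries and 68 were above 0 with a mean under 1 TPM (a transcript level corrected for transcript length and scaled to the same total in each library). The other 109 had a mean of at least 1 TPM and were tested, and they were 27 members at 1 to under 5 TPM, 43 at 5 to under 20 TPM, 36 at 20 to under 100 TPM and 3 at 100 TPM or more. Members listed at 0 included the kidney and liver drug carriers SLC22A6, SLC22A8, SLC47A1 and SLC47A2, the bile acid carriers SLC10A1 and SLC10A2, and the neurotransmitter carriers SLC6A2 and SLC6A11. Summed over all members, the level was 2628 to 2761 TPM in the control libraries and 2515 to 2675 TPM in the GNE140 libraries, and these ranges overlap.

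The phosphate importer SLC20A1 (ENSCAFG00845011031) was the most abundant member, at 330.4, 329.6 and 349.8 TPM in the controls and 333.5, 319.5 and 317.2 TPM after GNE140. Next came a pair of zinc carriers, SLC39A7, which releases zinc from the endoplasmic reticulum, at a mean of 139.7 TPM over the 6 libraries, and SLC39A1, a plasma membrane zinc importer, at 127.6 TPM. The CMP-sialic acid carrier of the Golgi, SLC35A1, had a mean of 95.4 TPM, and SLC5A6, which takes up biotin and pantothenate, 90.6 TPM. SLC5A2, known as the glucose cotransporter of the kidney tubule, was listed at 87.0 TPM. It shares its place in the RefSeq gene table with RUSF1, which was at 37.1 TPM, and the sources used here do not say whether strand was used in counting, so reads of the pair may not be separable. The bicarbonate importer SLC4A7 had 72.2 TPM, SLC10A3 67.7 TPM, the zinc carrier SLC30A9 51.4 TPM and SLC39A13, another zinc carrier, 47.2 TPM.

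None of these 10 most abundant members passed the test, and the groups were apart in SLC39A1 alone. Groups are called apart when all 3 GNE140 values lay above, or all 3 below, the 3 control values. The limma 95% interval of the difference in SLC20A1 ran from -0.16 to 0.04 on the log2(TPM + 1) scale, and that of SLC35A1 from -0.14 to 0.11.

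**Figure D1:**
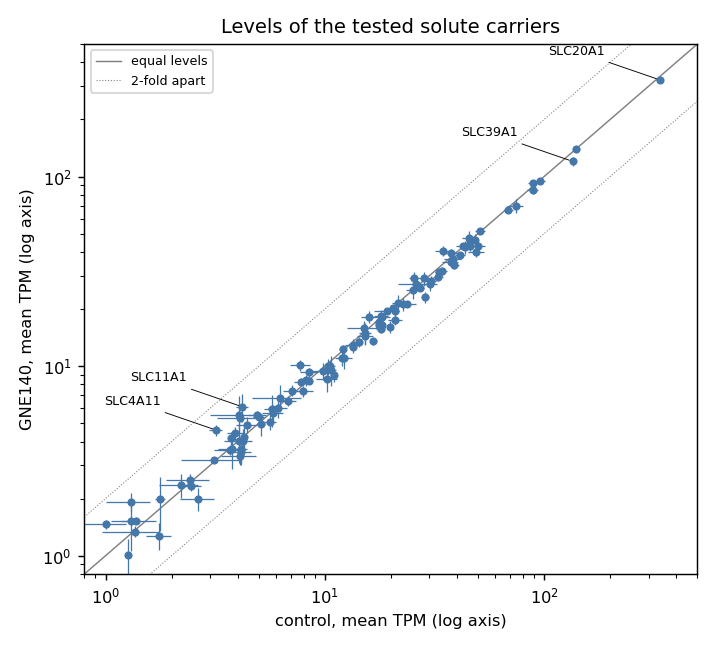
Mean TPM of the 109 tested solute carriers in control (x axis, log scale) and GNE140 libraries (y axis, log scale), with bars of 1 SD over 3 libraries each. The points lie near the line of equal levels from about 1 TPM up to SLC20A1 above 300 TPM, and every point lies inside the dotted lines of a 2-fold difference.

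The question put to the members was which carrier transcripts differ when lactate dehydrogenase is inhibited. By limma with Benjamini-Hochberg adjustment over 10874 genes, 0 of 109 tested solute carriers were called higher and 0 lower at an adjusted p under 0.05, while 3.03% of all tested genes were called (1.31% higher and 1.72% lower). Before adjustment, 7 members were higher (against 8.75% of all genes) and 11 lower (against 9.16%) at a limma p under 0.05, together 16.5% of those tested against 17.9% of all genes. The groups were apart in 29 members, 10 higher and 19 lower, which is 26.6% against 23.1% of all genes (11.2% higher and 11.8% lower).

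Differences were small and mostly on the lower side. The log2 differences of the tested members ran from -0.30 (SLC44A1) to 0.44 (SLC11A1) with a median of -0.038, where all tested genes had a median of 0.004. Between libraries of a group, the median deviation of the members from their group means had an SD of 0.044. That SD is for single libraries, whereas the median difference compares means of 3 libraries. It thus does not tell whether the lean exceeds the spread, and the lean was not tested. Of the 109 members 70 had a lower mean log2 level after GNE140, or 64.2%, where 48.9% of all tested genes did. By level, 30 of the 39 members with a mean of at least 20 TPM were lower (76.9%, against 53.8% of all genes at that level), 28 of the 43 at 5 to under 20 TPM (65.1%, against 47.5%), and 12 of the 27 under 5 TPM (44.4%, against 36.6%). Members share libraries and are not independent, so no test was made of these shares.

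The precision of the data bounds what these calls can show. The 95% interval of the difference lay wholly between -0.5 and 0.5 in 95 of the 109 members, and between -1 and 1 in all 109. In members of at least 20 TPM the median half-width of the interval was 0.15, and in those under 5 TPM it was 0.33. A p that misses the threshold does not show that a carrier was unchanged. Whether the replicates are separate cultures is not stated in the labels, and the p-values therefore measure only the spread between libraries, which may be technical. An exact 2-sided permutation test of 3 against 3 libraries cannot go below p = 0.1.

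**Figure D2:**
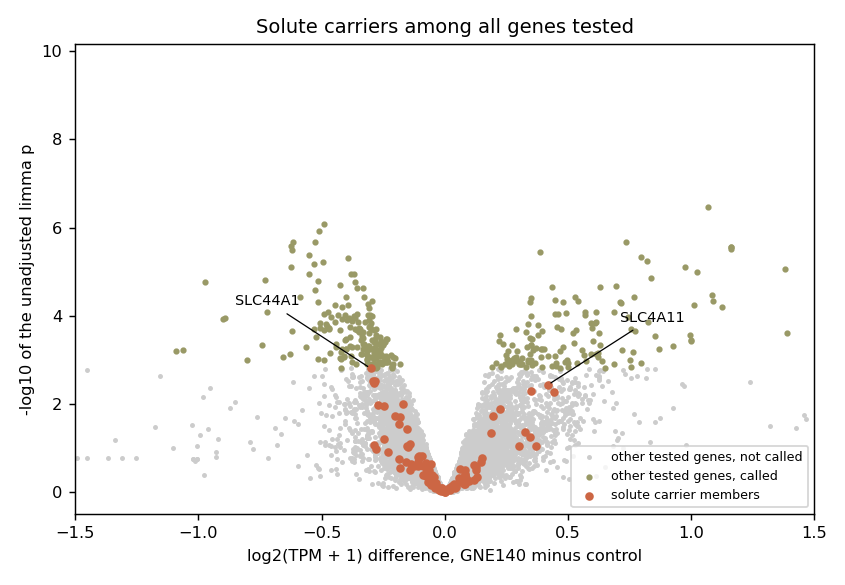
Difference between GNE140 and control on the log2(TPM + 1) scale (x axis) against -log10 of the unadjusted limma p (y axis) for all tested genes, with solute carriers in orange and other genes called at an adjusted p under 0.05 in olive. No orange point reaches the olive range; SLC44A1 lies at its lower edge, and 18 other genes lie outside the axis limits of -1.5 and 1.5.

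Vitamin and choline carriers held the member with the smallest p. SLC44A1 (ENSCAFG00845010837), a choline transporter that serves the synthesis of phosphatidylcholine, was at 28.9, 27.3 and 29.5 TPM in the controls and 24.5, 21.6 and 23.0 TPM after GNE140. The groups did not overlap, and the log2 difference was -0.30 (SE 0.07, 95% interval -0.45 to -0.15, limma adjusted p = 0.0506), just outside the threshold. Its adjusted p was 0.0220 with median-of-ratios scaling, 0.0238 under quantile normalization and 0.0411 once the 20 most abundant genes were removed, and it ranged from 0.0220 to 0.181 over all 15 alternative settings.

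The family has 3 tested members, and all had lower means after treatment. SLC44A2, another choline carrier, was at 10.7, 11.1 and 8.97 TPM in the controls and 9.82, 8.26 and 7.47 TPM after GNE140, so its groups overlapped (log2 -0.25, limma adjusted p = 0.306). SLC44A4 had a log2 difference of -0.23 (limma adjusted p = 0.425). The summed level of the SLC44 family was 41.9 to 44.6 TPM in controls and 33.0 to 38.02 TPM in treated libraries, most of it from SLC44A1. Its median log2 difference of -0.25 was the lowest among the 14 families with at least 3 tested members, of which 10 had a median below 0.

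The vitamin carriers varied less. SLC52A2, a riboflavin transporter, was at 28.2 ± 1.99 and 29.0 ± 2.45 TPM in control and GNE140 libraries (SD, n = 3 each). The folate carrier SLC19A1 had a log2 difference of -0.001 and the proton-coupled folate carrier SLC46A1 one of -0.02. The ascorbate carrier SLC23A2 was the other member of the class with groups apart, at 16.9 to 18.6 TPM in controls and 15.7 to 16.9 TPM in treated libraries (log2 -0.10, limma adjusted p = 0.495).

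Of 12 tested genes that act on folate, riboflavin, thiamine or choline inside the cell, 1 fell and 0 rose, against 1.72% lower and 1.31% higher over all tested genes. Over all 5 lists of such partner genes, 5 of 95 tested genes were called, which is 5.26% against 3.03% of all genes. The lists were chosen with earlier results of these data known, so these shares do not show an excess of called partners. The gene that fell was GGH, the lysosomal enzyme that trims folate polyglutamates, at 130.4, 132.0 and 140.4 TPM in the controls and 91.0, 105.0 and 105.6 TPM after GNE140. All treated libraries lay below all controls (log2 -0.42, SE 0.07, limma adjusted p = 0.0146), and the call was kept in 12 of 15 alternatives. The 2 losses among libraries left out were without control replicate 1 and without control replicate 3. FLAD1, which makes FAD from riboflavin products, was next by p at 77.8 and 82.1 TPM (log2 0.08, limma adjusted p = 0.494).

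Carriers of organic ions, lipids and drugs included a pair of fatty acid transport proteins with opposite signs. SLC27A4, which activates and traps long-chain fatty acids, was at 49.1, 45.2 and 53.0 TPM in the controls and 42.8, 38.4 and 38.6 TPM after GNE140. The groups were apart, with a log2 difference of -0.29 (SE 0.07, limma adjusted p = 0.0711). SLC27A1, a related protein known from muscle and fat, was at 4.76, 4.51 and 3.09 TPM in the controls and 5.59, 5.22 and 5.24 TPM after GNE140 (log2 0.33, limma adjusted p = 0.258). Neither passed over all genes, and the difference between them was not tested. SLC27A4 passed with median-of-ratios scaling (limma adjusted p = 0.0418) and with quantile normalization (0.0491).

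All 4 tested SLC22 carriers had lower means after GNE140, with overlapping groups and log2 differences from -0.18 to -0.05. One of them, SLC22A5, which imports carnitine for fatty acid oxidation, was low throughout, at 2.15 to 2.64 TPM in controls and 2.17 to 2.43 TPM after treatment. SLC10A3 was at 68.7 ± 3.31 and 66.6 ± 2.16 TPM (SD, n = 3 each).

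**Figure D3:**
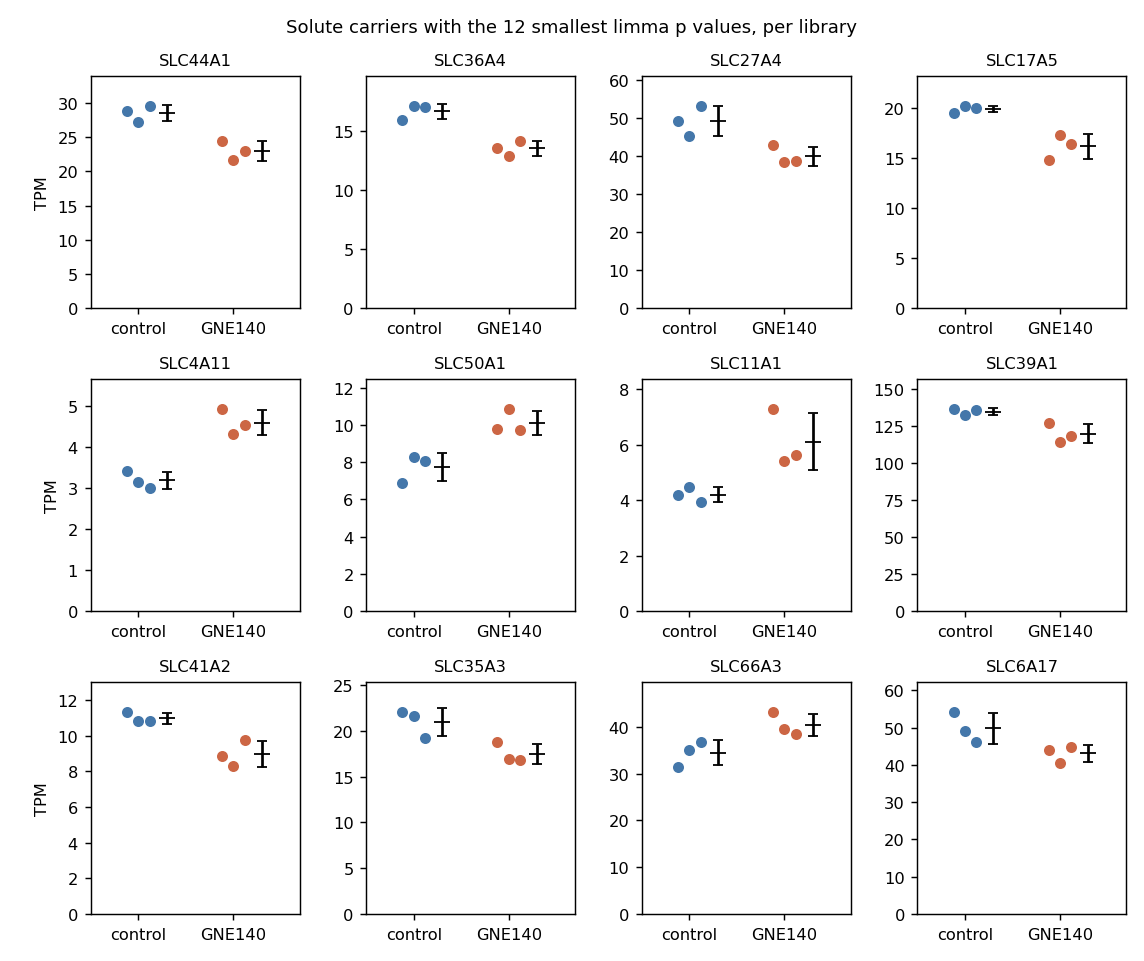
TPM in each library (dots) for the 12 solute carriers with the smallest limma p, with the mean and 1 SD of 3 libraries as black bars; each y axis starts at 0. All 12 show treated values apart from control values, and none passed after adjustment over all genes.

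Metal carriers formed the class with the most tested members, 28 of 35, and 20 of these had a lower mean after GNE140 (median log2 -0.05). Zinc importers of the SLC39 family leaned the same way, with 10 of 11 tested members lower and a median of -0.07. SLC39A1 was at 136.6, 132.5 and 135.9 TPM in the controls and 127.5, 114.6 and 118.4 TPM after GNE140 (log2 -0.17, SE 0.05, limma adjusted p = 0.124). SLC39A7 by contrast was at 141.3, 135.2 and 144.5 TPM and at 142.3, 135.4 and 139.4 TPM, with overlapping groups and a log2 difference of -0.01. Its sign turned with quantile normalization (0.01) and without control replicate 3 (0.008) or GNE140 replicate 2 (0.006). SLC39A8, an importer of zinc and manganese, was at 2.33 to 3.18 TPM in controls and 1.68 to 2.22 TPM after treatment (log2 -0.29, limma adjusted p = 0.355).

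Of the 6 tested SLC30 zinc exporters, 3 had groups apart on the lower side and 0 on the higher side. Over all tested genes 11.8% were apart lower. The 3 were SLC30A5 and SLC30A6, which pair up to load zinc into secretory enzymes, and SLC30A7, which acts in the same compartments. SLC30A5 was at 36.6 to 40.8 TPM in controls and 33.0 to 36.1 TPM in treated libraries (log2 -0.18, limma adjusted p = 0.173). SLC30A6 was at 31.0 to 34.1 TPM and 28.2 to 30.3 TPM (log2 -0.15, limma adjusted p = 0.239), and SLC30A7 at 14.3 to 14.5 TPM and 12.6 to 14.1 TPM (log2 -0.09, limma adjusted p = 0.595). SLC30A7 shares its place in the RefSeq gene table with EXTL2, which was at 20.2 TPM. SLC30A1, the plasma membrane exporter, overlapped between groups at 17.3 to 20.2 TPM and 17.6 to 18.9 TPM. SLC30A9 was at 51.2 ± 2.73 and 51.5 ± 0.652 TPM (SD, n = 3 each), and its sign turned without control replicate 2 and without GNE140 replicate 1 (log2 -0.03 and -0.0004).

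SLC11A1 (ENSCAFG00845027087), a divalent metal transporter known from macrophage phagosomes, had the largest positive difference of the tested members. It was at 4.20, 4.46 and 3.94 TPM in the controls and 7.28, 5.41 and 5.63 TPM after GNE140. The groups were apart and GNE140 replicate 1 was the highest (log2 0.44, SE 0.12, limma adjusted p = 0.0919). Its relative SLC11A2, which imports iron, overlapped between groups at 21.5 to 24.3 TPM and 19.9 to 23.1 TPM (log2 -0.11). The macrophage marker CD14 was at 4.18 to 4.81 TPM in controls and 5.65 to 6.40 TPM after treatment, while PTPRC, CSF1R, AIF1 and ITGAM each had a mean under 1 TPM in both groups and CD3E was listed at 0. Summed over 7 leukocyte markers, the level was 5.57 to 5.70 TPM in controls and 6.64 to 8.57 TPM in treated libraries, and the part of such cells in the SLC11A1 values was not tested.

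The remaining metal carriers did not pass the test either. SLC41A2, a magnesium carrier, was at 11.3, 10.8 and 10.8 TPM in the controls and 8.85, 8.30 and 9.74 TPM after GNE140 (log2 -0.27, limma adjusted p = 0.126). The heme carrier SLC48A1 was at 2.85, 4.42 and 4.91 TPM and at 7.15, 5.12 and 4.35 TPM, with overlapping groups (log2 0.37, limma adjusted p = 0.363). SLC31A1, the main copper importer, was at 14.4 to 16.9 TPM and 13.3 to 16.2 TPM, and shares its place with FKBP15, which was at 16.3 TPM. SLC40A1, the iron exporter, was low at 1.16 to 1.41 TPM and 1.01 to 1.90 TPM.

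Of 25 tested partners in metal handling (binding and storage proteins, pumps, channels, reductases and regulators), 1 rose and 0 fell, where 3.03% of all tested genes were called. MT2A, a metallothionein that buffers zinc and copper, was at 30.3, 25.3 and 25.0 TPM in the controls and 40.4, 57.2 and 36.0 TPM after GNE140. The treated libraries were all higher and spread widely (log2 0.69, SE 0.15, limma adjusted p = 0.0444), and 4 of 15 alternatives kept the call, with none of the 6 that left out a library among them. Metallothioneins are near-identical copies, so their estimated levels are uncertain. HMOX1, which breaks down heme, was at 15.4 to 17.9 TPM in controls and 20.8 to 21.3 TPM after treatment and did not pass (log2 0.31, limma adjusted p = 0.0561), although it passed under each of the 3 other scalings.

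The SLC35 family includes the Golgi and endoplasmic reticulum carriers of nucleotide sugars, though not all of its members are such carriers. Of its 23 members 18 were tested, with a median log2 difference of -0.03. SLC35A3 (ENSCAFG00845013522), which brings UDP-N-acetylglucosamine into the Golgi, was at 22.03, 21.7 and 19.2 TPM in the controls and 18.8, 16.9 and 16.8 TPM after GNE140. The groups were apart (log2 -0.25, SE 0.08, limma adjusted p = 0.131). SLC35F6 had the opposite sign, at 14.5 to 16.5 TPM and 16.7 to 18.9 TPM (log2 0.19, limma adjusted p = 0.264). It shares its place in the RefSeq gene table with CENPA, which was at 103 TPM.

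Over all tested genes 11.8% were apart lower and 11.2% higher. The share apart lower varied with level: 320 of 3341 genes at 5 to under 20 TPM and 879 of 5661 at 20 TPM or more. Of the 18 tested SLC35 members 5 had groups apart on the lower side and 1 on the higher side. Among the 5, the UDP-xylose carrier SLC35B4 had a log2 difference of -0.14, SLC35B3, which carries the sulfate donor PAPS, -0.15, and SLC35B1, an ATP carrier of the endoplasmic reticulum, -0.09. SLC35B2, the other PAPS carrier, was at 34.5 to 42.0 TPM and 37.9 to 40.9 TPM, with the opposite sign and overlapping groups (log2 0.08). SLC35A1 was at 95.8 ± 4.92 and 95.0 ± 3.59 TPM (SD, n = 3 each), and the sign of its log2 difference of -0.01 turned in 4 of 15 alternatives. The acetyl-CoA carrier SLC33A1 was nearly level between the groups, at 45.7 to 46.2 TPM in controls and 44.0 to 47.6 TPM in treated libraries, with a log2 difference of -0.004.

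Of 21 tested enzymes that make nucleotide sugars, 1 rose and 1 fell, beside the 3.03% called over all tested genes. UXS1, which makes UDP-xylose from UDP-glucuronate, was at 52.2, 49.0 and 55.2 TPM in the controls and 42.7, 41.6 and 39.7 TPM after GNE140 (log2 -0.33, SE 0.06, limma adjusted p = 0.0284). GNPNAT1, an enzyme of the path to UDP-N-acetylglucosamine, was at 100.7, 91.3 and 98.7 TPM and at 112.6, 115.7 and 125.5 TPM (log2 0.28, SE 0.06, limma adjusted p = 0.0408). Both had groups apart. With a library left out, UXS1 was called only without control replicate 2, and GNPNAT1 in none of the 6 fits. Over all alternatives UXS1 kept its call in 7 of 15 and GNPNAT1 in 6 of 15, and both lost it with no filter, without the variance trend and with the replicate block.

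**Figure D4:**
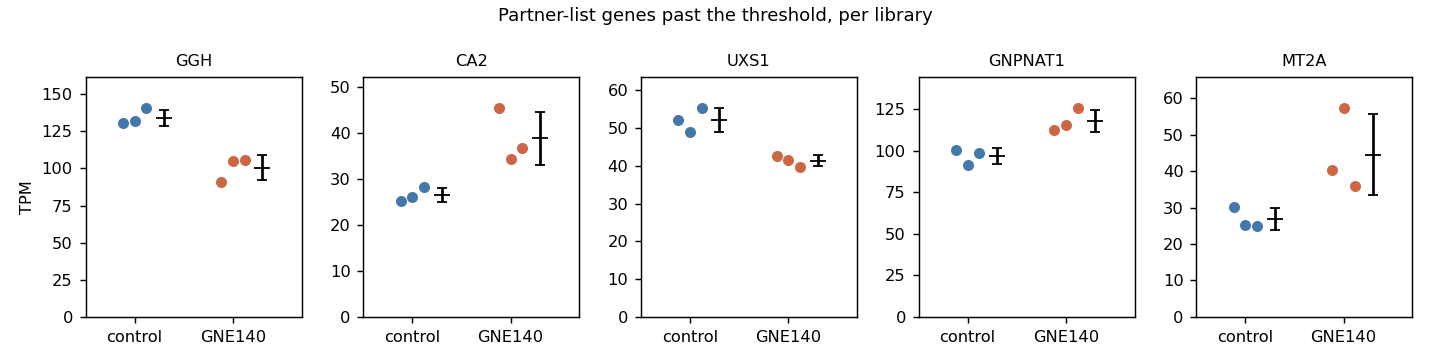
TPM in each library (dots) for the 5 genes of the partner lists that passed the limma threshold, with the mean and 1 SD of 3 libraries as black bars and y axes that start at 0. GGH and UXS1 were lower and CA2, GNPNAT1 and MT2A higher in all 3 treated libraries.

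Acid-base and chloride carriers had 17 tested members of 41, and 16 of them overlapped between groups, where 23.1% of all tested genes had groups apart. The exception was SLC4A11 (ENSCAFG00845015025), a member of the bicarbonate carrier family known for its part in the corneal endothelium. It was at 3.42, 3.15 and 3.0 TPM in the controls and 4.93, 4.33 and 4.54 TPM after GNE140. Every treated library was higher (log2 0.42, SE 0.11, 95% interval 0.17 to 0.66, limma adjusted p = 0.0774), and it passed without the variance trend (limma adjusted p = 0.0453). On the log2(TPM + 1) scale the change of a gene at this level is understated.

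The carriers that set cell pH and volume were close between groups. SLC4A7 was at 78.3, 77.3 and 66.9 TPM in the controls and 70.0, 64.3 and 76.6 TPM after GNE140 (log2 -0.08, limma adjusted p = 0.690). SLC4A2, a chloride/bicarbonate exchanger, had a log2 difference of -0.04. The sodium-potassium-chloride importer SLC12A2 was at 43.6 to 47.6 TPM and 39.8 to 44.4 TPM (log2 -0.10, limma adjusted p = 0.471). The 7 tested SLC9 members had a median of 0.02 and summed to 66.2 ± 3.34 and 66.9 ± 2.81 TPM over the family (SD, n = 3 each).

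Of 23 tested partners in pH, chloride and sodium control, 1 rose and 0 fell, against the 3.03% of all tested genes that were called. CA2, a carbonic anhydrase that interconverts carbon dioxide and bicarbonate, was at 25.3, 26.1 and 28.3 TPM in the controls and 45.4, 34.5 and 36.8 TPM after GNE140. All treated libraries were higher (log2 0.53, SE 0.10, limma adjusted p = 0.0270). With a library left out the call held without GNE140 replicate 1 and without GNE140 replicate 2 and was lost in the other 4 fits. It was kept in 8 of 15 alternatives, with losses also with no filter, without the variance trend and with the replicate block.

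Carriers of organic solutes and osmolytes had 12 tested members of 45. SLC36A4, an amino acid transporter with high affinity for proline and tryptophan, was at 15.9, 17.1 and 17.0 TPM in the controls and 13.5, 12.8 and 14.1 TPM after GNE140 (log2 -0.28, SE 0.07, limma adjusted p = 0.0708). It passed with median-of-ratios scaling (limma adjusted p = 0.0427) and with quantile normalization (0.0446). SLC50A1, a sugar carrier, was at 6.86, 8.30 and 8.07 TPM and at 9.76, 10.8 and 9.73 TPM, the reverse order (log2 0.35, SE 0.10, limma adjusted p = 0.0902). Both had groups apart.

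All 3 tested SLC6 carriers had lower means after treatment. SLC6A17, known as a vesicular amino acid carrier of neurons, was at 46.2 to 54.1 TPM in controls and 40.6 to 44.8 TPM in treated libraries (log2 -0.20, limma adjusted p = 0.170). The taurine carrier SLC6A6 was at 17.1 to 18.7 TPM and 14.9 to 16.5 TPM (log2 -0.18, limma adjusted p = 0.209). The creatine carrier SLC6A8 overlapped between the groups (log2 -0.07).

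Among the sodium-coupled SLC5 carriers, SLC5A3, which takes up the osmolyte myo-inositol, was low, at 1.51 to 1.97 TPM and 1.04 to 1.40 TPM (log2 -0.28, limma adjusted p = 0.392). SLC5A6 was at 88.7 ± 4.62 and 92.4 ± 2.47 TPM, and SLC5A2 at 88.6 ± 4.69 and 85.4 ± 4.60 TPM (SD, n = 3 each). SLC5A8, a sodium-coupled carrier of lactate and pyruvate, had a mean of 0.07 TPM in controls and 0.11 TPM after GNE140, and was not tested at that level. The urea carrier SLC14A1 was at 14.6 to 16.4 TPM and 13.2 to 17.0 TPM.

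SLC29A1 (ENSCAFG00845011282), the nucleoside transporter that dipyridamole blocks, was expressed in both groups. It was at 24.8, 24.8 and 26.8 TPM in the controls and 31.4, 27.8 and 28.6 TPM after GNE140. The groups were apart, with a log2 difference of 0.19 (SE 0.07, 95% interval 0.04 to 0.35, limma adjusted p = 0.171). The lysosomal nucleoside carrier SLC29A3 was at 4.53 to 5.42 TPM and 5.40 to 5.81 TPM, with overlapping groups (log2 0.15, limma adjusted p = 0.494). The other 3 nucleoside carriers in the table had means under 1 TPM. Of 14 tested genes of nucleoside salvage and breakdown, 0 were called by limma after adjustment, against 3.03% of all tested genes. At an unadjusted limma p under 0.05, 2 were higher and 0 lower, where 8.75% of all tested genes were higher and 9.16% lower. The 2 were UPP1, uridine phosphorylase (log2 0.14), and ADA, adenosine deaminase (log2 0.23).

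Phosphate and calcium carriers had few tested members. SLC20A2, the second phosphate importer of its family, was at 3.66 to 3.78 TPM and 3.95 to 4.56 TPM, with groups apart (log2 0.13, limma adjusted p = 0.603). It shares its place in the RefSeq gene table with SMIM19, which was at 7.13 TPM. SLC8A3, a sodium/calcium exchanger, was at 0.97, 1.53 and 1.41 TPM and at 2.09, 2.01 and 1.66 TPM (log2 0.35, limma adjusted p = 0.293). SLC8B1, the exchanger of mitochondria, was at 3.78 ± 0.524 and 3.68 ± 0.80 TPM (SD, n = 3 each), and the sign of its log2 difference of -0.04 turned in 3 of 14 alternatives.

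Vesicle and lysosome carriers held members of both signs. SLC17A5 (ENSCAFG00845012197), sialin, which exports sialic acid from lysosomes, was at 19.5, 20.2 and 20.03 TPM in the controls and 14.8, 17.3 and 16.4 TPM after GNE140. The controls lay close together and the treated libraries were all lower (log2 -0.29, SE 0.07, limma adjusted p = 0.0739). SLC66A3 was at 31.5, 35.2 and 36.8 TPM and at 43.2, 39.6 and 38.6 TPM, all higher (log2 0.23, SE 0.07, limma adjusted p = 0.142). SLC15A4, a lysosomal histidine and peptide carrier, overlapped at 42.6 ± 2.82 and 43.0 ± 0.921 TPM (SD, n = 3 each).

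**Figure D5:**
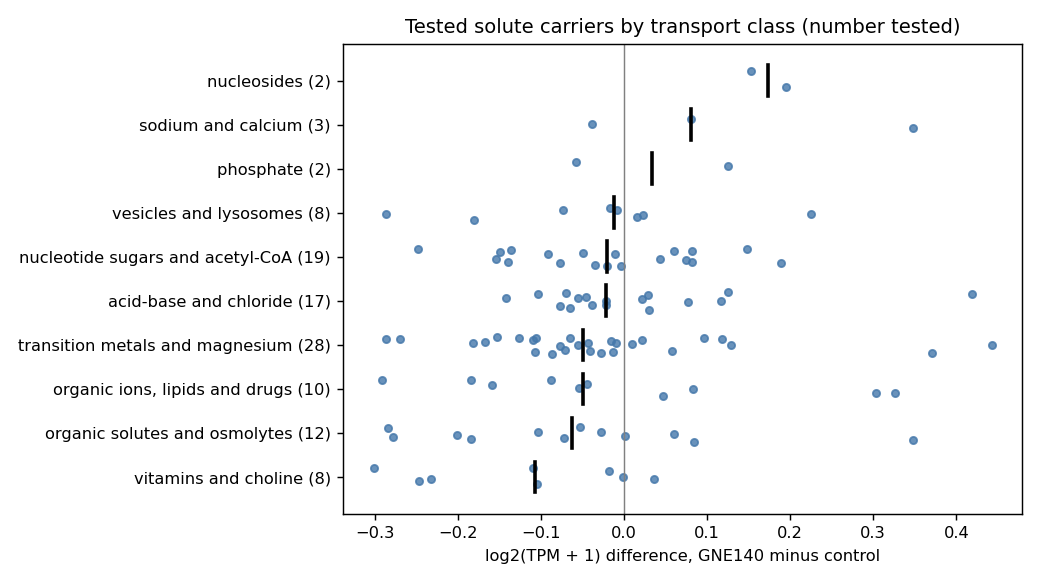
Difference between GNE140 and control on the log2(TPM + 1) scale (x axis) for the 109 tested solute carriers (dots), by transport class (y axis, number tested in brackets), with a black bar at the class median. Class medians run from -0.11 for vitamin and choline carriers to 0.17 for the 2 nucleoside carriers, and most dots lie between -0.3 and 0.3.

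Class medians lay between -0.11 and 0.17. They were -0.11 for vitamin and choline carriers, -0.06 for organic solutes and osmolytes, -0.05 for metals and for organic ions, lipids and drugs, and -0.02 for acid-base and chloride carriers and for nucleotide sugar carriers. The median was -0.01 for vesicles and lysosomes, 0.03 for phosphate, 0.08 for sodium and calcium, and 0.17 for the 2 tested nucleoside carriers. With no filter on low values the medians of vitamin carriers and nucleoside carriers were -0.02 and 0.02, and that of organic solutes was 0.0007. The phosphate median turned to -0.06 both with no filter and under the filter of 5 TPM. With a library left out, the sodium and calcium median ran from -0.06 without GNE140 replicate 1 to 0.24 without GNE140 replicate 2, and the vesicle and lysosome median from -0.10 without GNE140 replicate 3 to 0.02 without control replicate 3. The acid-base and chloride median turned to 0.04 without GNE140 replicate 2.

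Other solute carrier families are given beside these as a description. Of 19 tested amino acid carriers, 2 were called higher and 0 lower (10.5%, against 3.03% of all tested genes). Of 37 tested SLC25A mitochondrial carriers and 11 tested SLC16A and SLC2A members 0 were called by limma after adjustment, with 2 and 1 at an unadjusted p under 0.05, which 17.9% of all tested genes reached. Their medians were 0.06, 0.01 and -0.06. These sets share the same 6 libraries with the members described here, and the differences between sets were not tested.

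The cell type was checked with endothelial markers, and 11 of 12 had a mean of at least 1 TPM, among them CLDN5, PECAM1, EMCN and EGFL7, while VWF had a mean under 0.1 TPM. The 12 markers summed to 1623 to 1805 TPM in controls and 1435 to 1530 TPM in treated libraries. CLDN5 was the most abundant of them, with means of 757.6 and 624.6 TPM. Of the 11 tested, 9 had a lower and 2 a higher mean log2 level. FLT1 had the smallest p and was higher, with means of 2.80 and 4.41 TPM (log2 0.51, limma adjusted p = 0.0739). By limma 0 were called after adjustment. Before it, 3 were lower and 1 higher at a p under 0.05, where 9.16% of all tested genes were lower and 8.75% higher. Fibroblast and mural markers summed to 4.10 to 4.93 TPM and 4.86 to 7.06 TPM, and epithelial markers to at most 0.26 TPM. In bulk RNA, fewer cells of a type and less RNA per cell cannot be told apart. Whether the lower endothelial sum has a part in the lower levels of the abundant carriers was not tested.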

How the data were processed

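The deposited values are TPM, which the authors scaled to the same total in each library and rounded to 2 decimals. STAR, RSEM and edgeR 3.42.0 are named, per the submitters' processing notes. Their roles, the genome build and the strand setting were not given in the sources used here, and coordinates are left out. TPM keeps no read depth: the depth is unknown, and precision was judged from the spread between 3 libraries of a group. No sequence of a member was used here.

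Genes with a mean of at least 1 TPM entered limma 3.58.1 (R 4.3.3) on log2(TPM + 1), a scale that understates changes of low genes, with group as the only term, a mean-variance trend, 2-sided tests and Benjamini-Hochberg adjustment over all 10874 genes at 0.05. In 10 data sets simulated from the real means and spreads, 200 genes with a mean of at least 5 TPM were changed in each. Recovery was 31.6% for a log2 change of 0.3, 72.8% for 0.5 and 97.0% for 1. Of all calls over the 10874 tested genes, 4.83% were false. Recovery of genes under 5 TPM was not simulated.

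All 233 members had an Ensembl identifier in the deposited table and 231 a symbol in the RefSeq table of UU_Cfam_GSD_1.0, used for names and for genes at the same place. Of 107 tested members found there, 10 shared their place with a gene of at least 1 TPM. The members, classes, partner lists and tests were chosen with earlier results of these data known.

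Named members were those past the threshold (none), the 8 largest differences in each direction among members with at least 5 TPM in the higher group and groups apart, the 10 most abundant, the smallest p and the highest level in each class, SLC29A1 and SLC5A8. From each partner list, called genes and the 2 smallest p were named. Some genes picked by this rule are not reported here. Others were chosen for their known role after their values were seen. Figures were drawn with matplotlib 3.10.9.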

Additional observations from a re-analysis of the deposited data

How the results depend on the processing

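Depth is unknown, and members under 5 TPM had a median interval half-width of 0.33. The alternatives were 2 pseudocounts, 2 filters, 3 scalings, no variance trend, a block for the replicate number, and the 6 fits without 1 library. The count of members called higher was 0 except without the variance trend (1, SLC4A11). The count called lower was 0, or 1 at a pseudocount of 0.1, under the filter of 5 TPM and once the 20 most abundant genes were removed (SLC44A1 each time), and 3 with median-of-ratios scaling and with quantile normalization (SLC44A1, SLC27A4 and SLC36A4). With each library left out both counts stayed at 0. Members with groups apart numbered 10 higher and 19 lower; the higher count was 16 without a filter and 5 under the filter of 5 TPM. With a library left out it ran from 11 to 18 and the lower count from 21 to 32, with 18 higher without GNE140 replicate 2, and 32 and 31 lower without control replicate 2 and without GNE140 replicate 1; with fewer libraries a gap is easier. The median log2 difference of tested members ran from -0.06 to -0.01 and stayed below 0 in all 15 alternatives. These all draw on the same 6 libraries.

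Over all genes, 329 were called, against 438 with median-of-ratios scaling (154 higher and 284 lower), 416 with quantile normalization, 377 once the 20 most abundant genes were removed, 168 with no filter, 159 without the trend (92 higher and 67 lower), and 60 to 179 with a library left out. The replicate numbers did not pair the libraries: same-numbered libraries correlated at 0.0358, 0.00927 and -0.0977 in their deviations from the group means, and not every library correlated best with its own number. With the replicate block 0 members were called higher and 0 lower, and 163 genes were called in all.

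Among 29 named members tested, 6 changed sign under some alternative, all with a log2 difference within 0.05 of 0. With a library left out, SLC35A1 ran from -0.0448 to 0.0276, SLC39A7 from -0.0393 to 0.00817, SLC8B1 from -0.175 to 0.0503, SLC30A9 from -0.0341 to 0.0365, SLC15A4 from -0.0266 to 0.0656 and SLC52A2 from -0.0285 to 0.0915. Under quantile normalization SLC35A1 turned to 0.00837 and SLC39A7 to 0.0139, and once the 20 most abundant genes were removed SLC35A1 turned to 0.000596. The cause of these turns was not tested.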
